A study of Mus musculus with 7 samples.

Results

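The data described here are the PU.1 and MITF binding sites around 10 genes of iron handling and of the PGC1 coactivator axis during osteoclast (OC) differentiation. The genes were Tfrc, Slc11a1, Slc11a2, Slc40a1, Hmox1, Fth1, Ftl1, Ppargc1b, Ppargc1a and Pparg, and they were chosen by name from 22225 protein-coding genes. A peak was assigned to a gene when its center lay within the gene or within 50 kb of either end on mm9. Peaks of the 6 PU.1 and MITF lists that overlapped by at least 1 bp were joined into sites, and 164 of the 102877 sites in the series lay in the 10 windows. Bone marrow was taken from C57BL/6 mice (given as C57BLACK6) 4 to 6 weeks old, precultured for 3 days and grown in 50 ng per ml CSF1. Cells kept in CSF1 alone were the myeloid precursors (MPs). Cells given 100 ng per ml RANKL in addition were taken after 36 h (36 h cells) or 72 h (OCs). PU.1 and MITF were each precipitated at the 3 times and non-specific IgG from MPs only, with 1 library per condition and no replicate. No genotype or deletion was given for these cells, and the lists hold no transcript level with which markers of MPs or OCs could be checked.

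Iron enters cells bound to transferrin through the transferrin receptor, leaves the endosome through divalent metal transporters, is stored in ferritin and is exported by ferroportin. Heme oxygenase releases iron from heme, a step that macrophages use when they clear old red cells. Osteoclasts are rich in mitochondria, and PGC1β, the coactivator encoded by Ppargc1b, drives mitochondrial biogenesis, for which iron taken up through the transferrin receptor supplies heme and iron-sulfur proteins. PU.1 is an ETS factor of the myeloid lineage that binds purine-rich sites with a GGAA core, and MITF is a basic helix-loop-helix factor that binds E-boxes and partners PU.1 at osteoclast genes.

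Each list gave for each peak a position and a Peak Score, the number of sequence tags in the peak scaled to a common library size. Within a list every score was a multiple of the worth of 1 tag (largest deviation 0.0511), so the tags could be recovered. The PU.1 lists held 71941 to 77072 peaks and the MITF lists 3540 to 5413. The weakest listed peaks had 6 or 7 tags for PU.1 and 8 to 10 for MITF, and weaker binding was not listed. The only error that can be given for a difference of tags is counting error, and a test on tags compares these libraries, not the conditions. The 36 h lists differed in peak width: PU.1 peaks there were up to 190 bp wide, against 150 bp in MPs and OCs, and MITF 36 h peaks were 150 to 1387 bp wide, against 150 bp. No IgG peak of 349 lay in the 10 windows.

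MITF was found at 15 of the 164 sites, every one of which also held a PU.1 peak, and at 5 of these sites MITF and PU.1 overlapped at all 3 times. The 5 are 33.3% of the 15, beside 26.1% of all sites with MITF in the series. They lay around 4 genes, where 15.6% of all protein-coding windows had such a site, and 4 of their sequences under the PU.1 OC peak are shown because they are where the 2 factors were listed together throughout. The plus strand of mm9 is given, 5′ to 3′. Capitals mark the PU.1-type words GAGGAA and GGAAGT on either strand (TTCCTC and ACTTCC where the minus strand carries them), which can share letters where they adjoin. The E-box words CACGTG and CATGTG were searched as well and occurred in none of the 4.
Hmox1, 7.4 kb upstream of the gene, chr8:77610062-77610212: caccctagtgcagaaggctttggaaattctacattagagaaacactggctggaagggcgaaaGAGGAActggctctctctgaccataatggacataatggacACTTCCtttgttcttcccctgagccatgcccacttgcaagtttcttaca
Tfrc, 1.2 kb upstream, chr16:32607748-32607898: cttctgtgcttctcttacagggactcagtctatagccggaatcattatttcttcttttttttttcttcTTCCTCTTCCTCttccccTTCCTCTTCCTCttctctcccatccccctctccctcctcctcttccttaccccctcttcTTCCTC
Ftl1, 0.4 kb past the 3′ end, chr7:52712851-52713001: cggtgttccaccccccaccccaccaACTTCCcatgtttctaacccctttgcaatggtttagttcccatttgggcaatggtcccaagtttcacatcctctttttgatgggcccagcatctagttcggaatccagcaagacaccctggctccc
Pparg, 14.8 kb past the 3′ end, chr6:115455097-115455247: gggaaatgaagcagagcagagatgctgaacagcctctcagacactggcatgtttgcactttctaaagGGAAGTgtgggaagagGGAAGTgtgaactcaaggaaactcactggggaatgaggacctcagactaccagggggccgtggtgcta
The 4 peaks were outside annotated exons and intergenic, with 47.0% to 53.0% GC. The Tfrc sequence had 5 copies of GAGGAA on the minus strand and no GGAAGT. Hmox1 had 1 copy of each word, the Pparg site past the 3′ end had 2 GGAAGT, and Ftl1 had 1 GGAAGT. A match of letters is a description and does not show which bases were bound.

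Over the 10 windows PU.1 had 126 peaks in MPs, 114 at 36 h and 131 in OCs, and all 10 genes had at least 1 PU.1 peak at each time, beside 83.8%, 83.3% and 83.8% of all protein-coding windows. PU.1 was listed at all 3 times at 86 of the 164 sites (52.4%), beside 50.5% of the 102366 sites with PU.1 in the whole series. Of the 164 sites, 73 were intronic, 73 intergenic, 13 in UTRs and 5 in exons outside UTRs, and 87 had the chosen gene as the nearest transcription start. The other sites lay nearer to a neighbor, so a site in a window is not thereby a site of the gene. The number of PU.1 peaks per 100 kb in OCs had a median of 10.2 over the 10 windows, beside 4.85 over all protein-coding genes. It ran from 0.468 at Ppargc1a to 18 at Slc11a1.

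**Figure D1:**
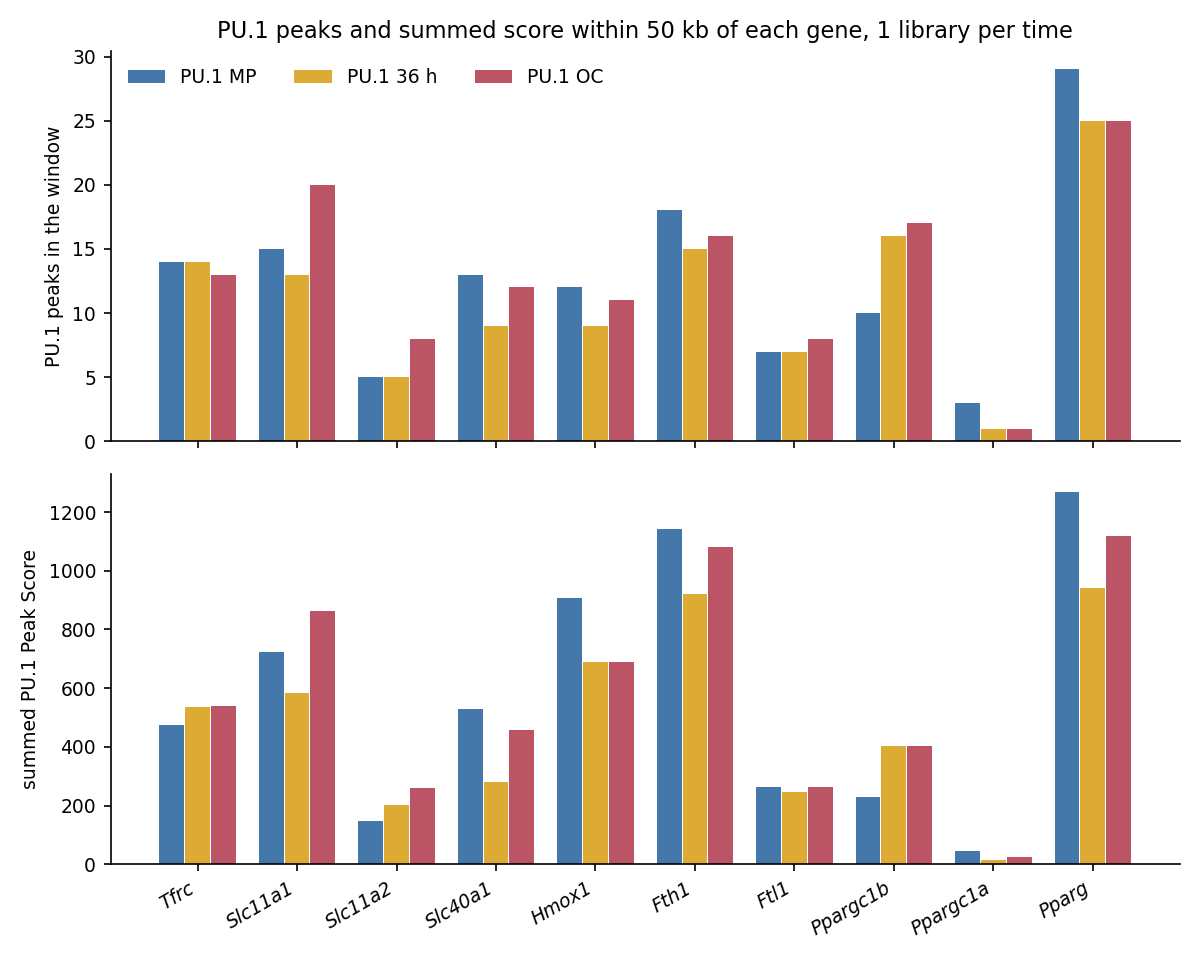
PU.1 peaks (top) and summed PU.1 Peak Score in scaled tags (bottom) within 50 kb of each of the 10 genes, with 1 bar per library for MPs, 36 h and OCs. Pparg, Fth1, Hmox1 and Slc11a1 had the highest sums, Ppargc1a had 3, 1 and 1 peaks, and Ppargc1b had 10, 16 and 17.

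Tfrc (chr16:32609006-32632880, plus strand) encodes the transferrin receptor. It had 14, 14 and 13 PU.1 peaks in MPs, at 36 h and in OCs, with a summed score of 476.0, 536.5 and 539.1. Of its 19 sites, 11 lay nearer to a Tfrc start than to any other, and 8 lay toward the neighbor Tnk2, the nearest gene to the site 57.5 kb downstream of the Tfrc start. The only MITF site was the one 1.2 kb upstream whose sequence is printed above. PU.1 had 52 tags there in MPs, 46 at 36 h and 55 in OCs, which differed by less than counting error (log2 fold change from MP to OC -0.11, 95% interval -0.69 to 0.46). MITF had 11 tags in MPs, 25 at 36 h in a peak of 170 bp, and 11 in OCs. Relative to the median of all MITF pairs, the step from MP to 36 h was 0.39 on the log2 scale (-0.69 to 1.56, exact binomial p = 0.494, adjusted p = 0.682), and the step from MP to OC was 0.24 (-1.11 to 1.59, adjusted p = 1.0). MITF and PU.1 were thus both listed at this site before RANKL and after it, and neither factor differed between MP and OC beyond counting error.

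The same Tfrc site is the one that the study's ChIP-PCR primers amplify. The forward primer gtctatagccggaatcattatttctt and the reverse primer ggaagaagagggggtaagga each matched mm9 at 1 place, and they enclose 122 bp, chr16:32607775-32607896. This segment lay inside the PU.1 peak and inside the MITF peak of each of the 6 lists.

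The highest PU.1 score of the Tfrc window, 96.9 in OCs, was at an intergenic site 38.5 kb upstream, with 30 tags in MPs, 50 at 36 h and 66 in OCs. The tags were lowest in MPs and highest in OCs, but the step from MP to OC (log2 0.94, 95% interval 0.30 to 1.62, exact binomial p = 0.00283) did not pass adjustment over the 60100 pairs tested (adjusted p = 0.232). Binding in more cells and more binding per cell cannot be told apart in such bulk libraries. The site near Tnk2 had 22, 49 and 35 tags, and its step from MP to 36 h (log2 1.07, 0.32 to 1.87) likewise missed the threshold (exact binomial adjusted p = 0.113). Within 1 kb of the Tfrc start, PU.1 had a weak peak of 9, 10 and 11 tags in a UTR, with no MITF.

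**Figure D2:**
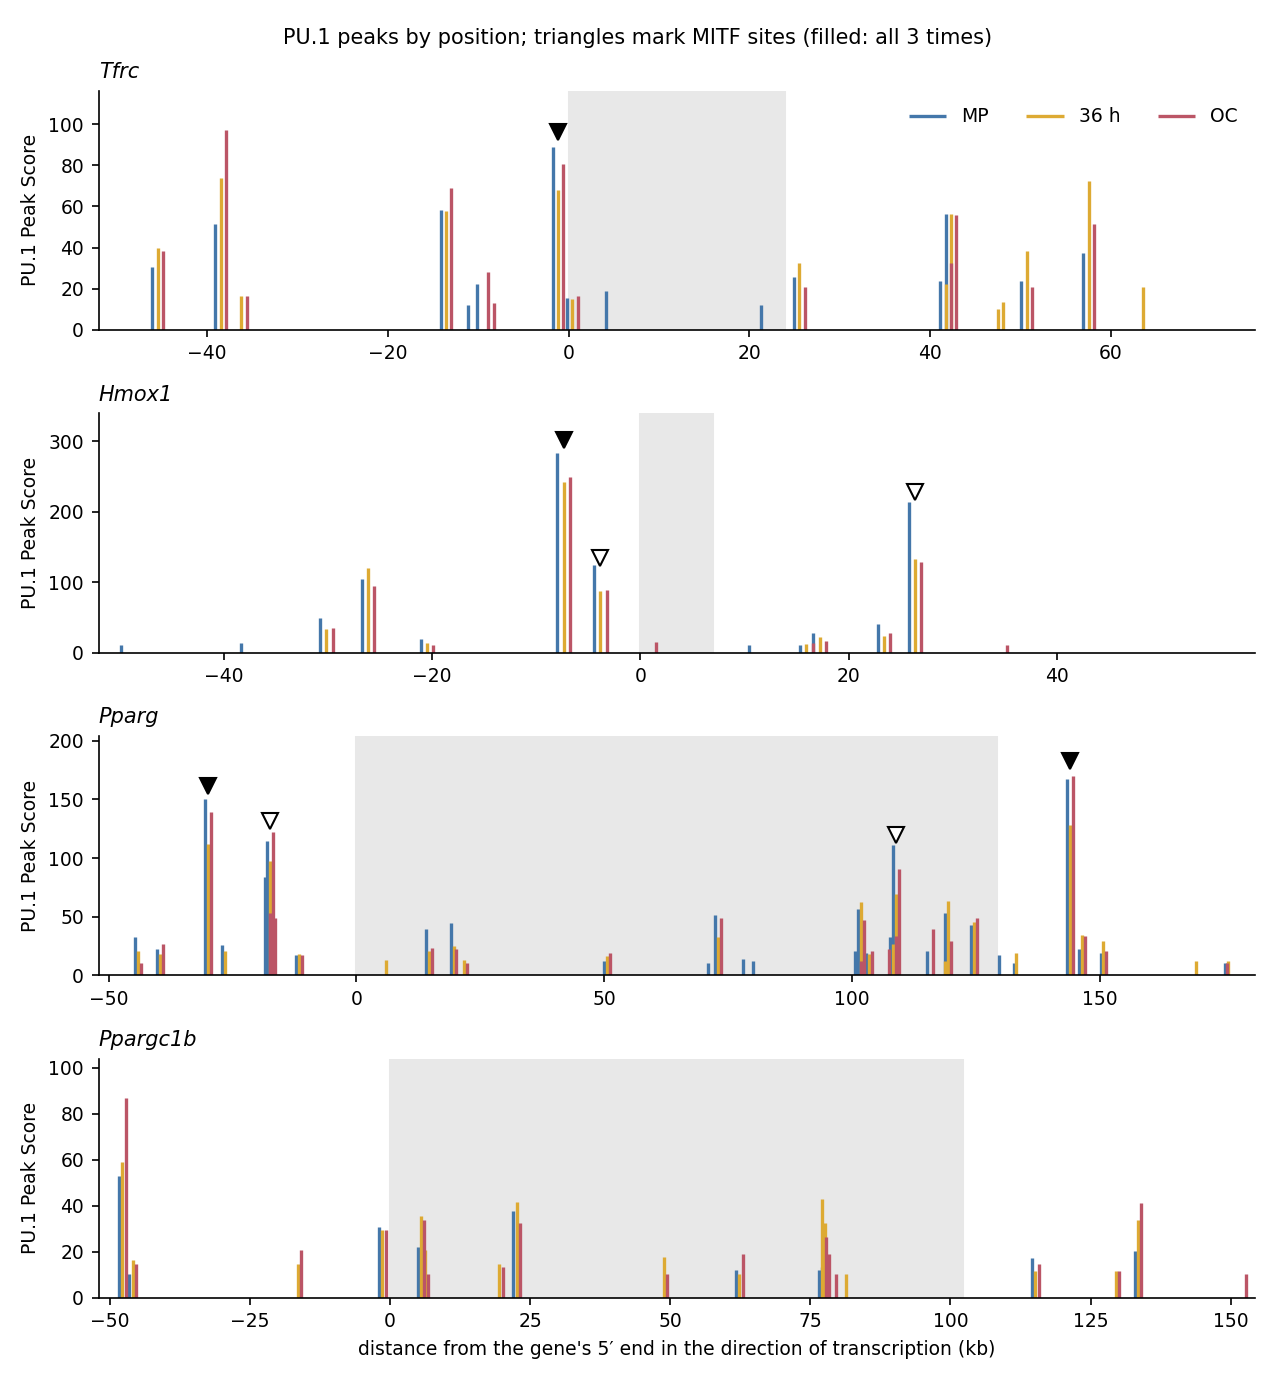
PU.1 Peak Score (scaled tags) of each site against its distance in kb from the gene's 5′ end, for Tfrc, Hmox1, Pparg and Ppargc1b, with 1 line per library shifted slightly sideways for display and the gene body shaded. Filled triangles mark sites with MITF at all 3 times and open triangles sites with MITF at 1 or 2 times; Ppargc1b has no triangle.

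Slc11a1 (chr1:74421777-74432636, plus strand) encodes NRAMP1, which moves metal ions out of the phagosome of macrophages. It had 15, 13 and 20 PU.1 peaks, in OCs the most per 100 kb of the 10 windows, and a summed score of 721.6, 583.9 and 863.4. PU.1 was strong at the start of the gene: a site 0.1 kb upstream had 59, 65 and 79 tags, and a site in the intron just after it had 54 tags in MPs and 68 in OCs and was not listed at 36 h. The 2 centers were 454 bp apart when the OC and 36 h peaks were set side by side. The smallest distance between centers was 444 bp in the PU.1 36 h list, less than these 454 bp, and 370 bp in the MP and OC lists. Whether spacing had a part in the missing 36 h peak was not tested. A site 1.8 kb upstream had 34, 39 and 61 tags (MP to OC log2 0.65, 0.02 to 1.30, exact binomial adjusted p = 0.588). Another site near a start, that of an internal transcript 6.6 kb into the gene, had 12, 20 and 20 tags. The highest PU.1 score of the window, 119.4 in MPs, was at a site with 70, 70 and 75 tags in an intron of Vil1, 59.5 kb downstream. MITF was listed at 1 site and 1 time, with 8 tags in OCs, the lowest number in that list, in an exon of Gm216 6.5 kb upstream, where PU.1 had 48, 45 and 50 tags.

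Slc11a2 (chr15:100218329-100255503, minus strand) encodes DMT1, which carries iron out of the endosome. It had 5, 5 and 8 PU.1 peaks, a summed score of 148.3, 202.4 and 260.0, and no MITF peak at any time. A site 5.3 kb upstream, nearest to Slc11a2 itself, was not listed in MPs and had 21 tags at 36 h and 45 in OCs. PU.1 OC peaks without an overlapping MP peak made up 22.9% of those in the windows (30 of 131) and 22.0% of the whole list, with a median of 9.0 tags in the windows against 23.0 for those with one, and this site was the highest of the 30. Of the 13177 PU.1 OC peaks in the whole list with at least 45 tags, 0.569% lacked one. The step from 36 h to OC was 0.98 on the log2 scale (95% interval 0.21 to 1.81, exact binomial p = 0.00934, adjusted p = 0.485), and the step from MP could not be tested because the MP list gives no value there. Its sequence is shown since it is the clearest site listed after RANKL and not before, chosen after its values were seen.
Slc11a2, 5.3 kb upstream, chr15:100260694-100260844: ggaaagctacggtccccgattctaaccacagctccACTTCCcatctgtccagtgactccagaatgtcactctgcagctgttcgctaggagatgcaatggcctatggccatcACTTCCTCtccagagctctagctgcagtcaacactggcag
It held 2 GGAAGT words and 1 GAGGAA word on the minus strand, with 1 of each sharing 4 letters, printed as ACTTCCTC. The highest Slc11a2 site was in an intron 3.7 kb into the gene, with 41, 67 and 55 tags (MP to 36 h log2 0.63, 0.04 to 1.22, exact binomial adjusted p = 0.386). This site was nearer to a start of Gm5475 than to one of Slc11a2. The 1 peak within 1 kb of a Slc11a2 transcript start was in MPs only and had 6 tags. That peak lay in a UTR of Gm5475, whose start was also nearer.

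Slc40a1 (chr1:45964915-45982439, minus strand) encodes ferroportin, the iron exporter. It had 13, 9 and 12 PU.1 peaks with a summed score of 528.7, 279.4 and 456.9. PU.1 was absent from the lists within 1 kb of its start, the nearest listed site being in the 3′ UTR 16.6 kb downstream, with 22, 8 and 14 tags. The strong sites lay past the 3′ end, the highest of them 49.8 kb beyond the gene and nearest to Wdr75. There PU.1 had 63, 49 and 67 tags and MITF 9 tags in OCs only. A second site, 42.2 kb beyond the gene, had 52, 34 and 44 PU.1 tags and 9 MITF tags in MPs only. Of the 8 sites listed at all 3 times, 6 had fewer tags at 36 h than in MPs and 2 had equal numbers, and their summed score was 429.8, 267.6 and 345.2. In Peak Score, which also takes up library size, all 8 were lower at 36 h than in MPs, beside 59.8% of all PU.1 pairs in the series. No single pair passed the test, and the median log2 change over the 9 pairs from MP to 36 h was -0.45.

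Hmox1 (chr8:77617490-77624495, plus strand) encodes heme oxygenase 1. It had 12, 9 and 11 PU.1 peaks. The site 7.4 kb upstream printed above had the highest PU.1 score of the 10 windows at each time and, at 36 h, the highest MITF score. PU.1 had 166, 164 and 170 tags there, a difference from MP to OC of -0.16 on the log2 scale (95% interval -0.48 to 0.16). MITF had 20 tags in MPs, 62 at 36 h in a peak of 235 bp, and 16 in OCs. The 36 h value stood above the others in tags, and its steps were 0.84 from MP (0.09 to 1.64, exact binomial p = 0.0218, adjusted p = 0.0933) and -0.87 to OC (-1.77 to -0.06, p = 0.0288, adjusted p = 0.135), both short of the threshold. These values are relative to the median MITF pair. With the ratio expected from library sizes the steps were 1.54 (exact binomial adjusted p = 7.67e-05) and -1.72 (exact binomial adjusted p = 2.53e-05), and both were called, beside 33.6% and 38.2% of all MITF pairs. MP and OC did not differ beyond counting error (-0.08, -1.13 to 0.94). A second site 3.8 kb upstream had 73, 59 and 60 PU.1 tags, with 12 MITF tags in MPs and 9 in OCs. The remaining MITF site, in an intron of the neighbor Mcm5 26.4 kb downstream, had 125, 90 and 88 PU.1 tags, with 11 MITF tags in MPs and 10 at 36 h. The PU.1 step from MP to OC there was -0.70 (-1.11 to -0.29, exact binomial p = 0.000564) and did not pass adjustment (adjusted p = 0.108). Over the 9 sites listed at all 3 times the summed PU.1 score was 871.7, 687.3 and 663.7, and 1 of the 9 had a higher score in OCs than in MPs. How many of all such sites in the series were higher in OCs was not counted. Within 1 kb of the Hmox1 start PU.1 was listed in OCs only, with 10 tags.

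Fth1 (chr19:10057193-10059582, plus strand) and Ftl1 (chr7:52713314-52715254, minus strand) encode the heavy and light chains of ferritin. Fth1 had 18, 15 and 16 PU.1 peaks with a summed score of 1141.0, 919.5 and 1082.1. Its highest site, 30.2 kb upstream, had 144, 101 and 135 PU.1 tags, with 19 MITF tags in MPs, none listed at 36 h and 16 in OCs. The PU.1 step from MP to 36 h was -0.59 on the log2 scale (95% interval -0.98 to -0.22, exact binomial p = 0.00168, adjusted p = 0.0834), short of the threshold, and MITF did not differ between MP and OC beyond counting error (-0.01, -1.06 to 1.03). The site 4.2 kb upstream had 72, 77 and 85 PU.1 tags and MITF at 36 h only, with 13 tags. A site in an intron of Rab3il1 39.6 kb downstream had 58 PU.1 tags in MPs and 66 in OCs, with 10 MITF tags in MPs, and in the 36 h list a PU.1 peak of 55 tags stood 219 bp beside it. Within 1 kb of the start, in the Fth1 intron, PU.1 had 19, 25 and 21 tags. Ftl1 had 7, 7 and 8 PU.1 peaks with a summed score of 262.7, 246.9 and 262.9 in a window shared with 8 other coding genes. Its highest site was the one 0.4 kb past its 3′ end, with 75, 74 and 77 PU.1 tags and 9, 14 and 10 MITF tags, the smallest range of MITF tags among the 5 sites with MITF at all times. A site 0.4 kb upstream of the Ftl1 start had 23, 19 and 23 PU.1 tags and no MITF.

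Ppargc1b (chr18:61457790-61560085, minus strand) encodes PGC1β. It had more PU.1 peaks after RANKL than before, with 10, 16 and 17, and a summed score of 228.5, 403.5 and 403.9. The sites not listed in MPs had 7 to 14 tags, near the lower limit of the lists. In the whole series 21.7% of PU.1 36 h peaks and 22.0% of PU.1 OC peaks overlapped no MP peak. The 10 sites listed at all 3 times had a summed score of 228.5, 313.4 and 317.2, and 7 of them were higher in OCs than in MPs. How many of all such sites in the series were higher in OCs was not counted. The median log2 change was 0.54 over the 10 pairs from MP to 36 h, with a range of -0.40 to 1.97, and 0.58 over the 10 pairs from MP to OC. All 10 MP peaks of the window were still listed at 36 h and in OCs, where 21.2% of all PU.1 MP peaks overlapped no OC peak. MITF was not listed at Ppargc1b at any time.

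The Ppargc1b site called changed lay in an intron 77.1 kb into the gene, where PU.1 had 7 tags in MPs, 29 at 36 h and 18 in OCs. The 36 h value was the highest and the MP value was near the lower limit of its list. The step from MP to 36 h was 1.97 on the log2 scale (95% interval 0.75 to 3.40, exact binomial adjusted p = 0.0357). With the ratio expected from library sizes it was 1.84 (exact binomial adjusted p = 0.0469). With a stricter score, at least 2 times that of the weakest listed peak, this MP peak dropped out and 0 PU.1 pairs of the windows were called. A site 0.5 kb from it, at 77.6 kb, had 8, 22 and 13 tags (1.38, 0.16 to 2.75, exact binomial adjusted p = 0.284). Both were nearer to the start of Pde6a than to that of Ppargc1b. The highest site of the window, 47.8 kb upstream and nearest to Ppargc1b, had 31, 40 and 59 tags, lowest in MPs and highest in OCs (MP to OC 0.74, 0.08 to 1.41, exact binomial adjusted p = 0.465). The site closest to the start, 1.4 kb upstream, had 18, 20 and 20 tags.

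Ppargc1a (chr5:51845488-51958964, minus strand), which encodes the related coactivator PGC1α of brown fat, muscle and liver, was nearly free of PU.1. It had 3 peaks in MPs and 1 at 36 h and in OCs, all within the gene. The 1 site listed throughout lay in an intron 85.1 kb into the gene and had 12, 10 and 16 tags, and the other 2 had 7 tags each in MPs. MITF was not listed. At OC time the summed score was 23.5 at Ppargc1a and 403.9 at Ppargc1b, in windows of 213.5 and 202.3 kb.

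Pparg (chr6:115311239-115440419, plus strand) encodes PPARγ, a nuclear receptor that acts with PGC1 coactivators in osteoclasts. It had the most PU.1 peaks of the 10 genes at each time, with 29, 25 and 25, and 4, 2 and 2 MITF peaks. Its summed PU.1 score was 1267.5, 940.0 and 1119.1. The site 14.8 kb past its 3′ end had 98, 87 and 116 PU.1 tags. MITF there had 23 tags in MPs, 11 at 36 h in a peak of 150 bp and 8 in OCs, highest in MPs and lowest in OCs. Relative to the median of all MITF pairs, in which tags rose by a ratio of 1.737 from MP to 36 h, the step was -1.86 on the log2 scale (95% interval -3.04 to -0.77, exact binomial adjusted p = 0.00367), the only MITF call in the 10 windows. The ratio expected from the library sizes was 1.067, and with it the step was -1.16 (exact binomial adjusted p = 0.0663). Among 36 h peaks of 150 bp alone it was -0.93 (exact binomial adjusted p = 1.0). The call was lost under both alternatives. From MP to OC the step was -1.28 (-2.65 to -0.07, exact binomial p = 0.0296, adjusted p = 1.0). The site 30 kb upstream had 88, 76 and 95 PU.1 tags and 9, 21 and 9 MITF tags, the 36 h peak being 174 bp wide. Sites 17.5 kb upstream and 108.7 kb into the gene had 11 and 10 MITF tags in MPs only, beside 67, 66 and 83 and 65, 47 and 62 PU.1 tags. No PU.1 peak lay within 1 kb of a Pparg start.

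**Figure D3:**
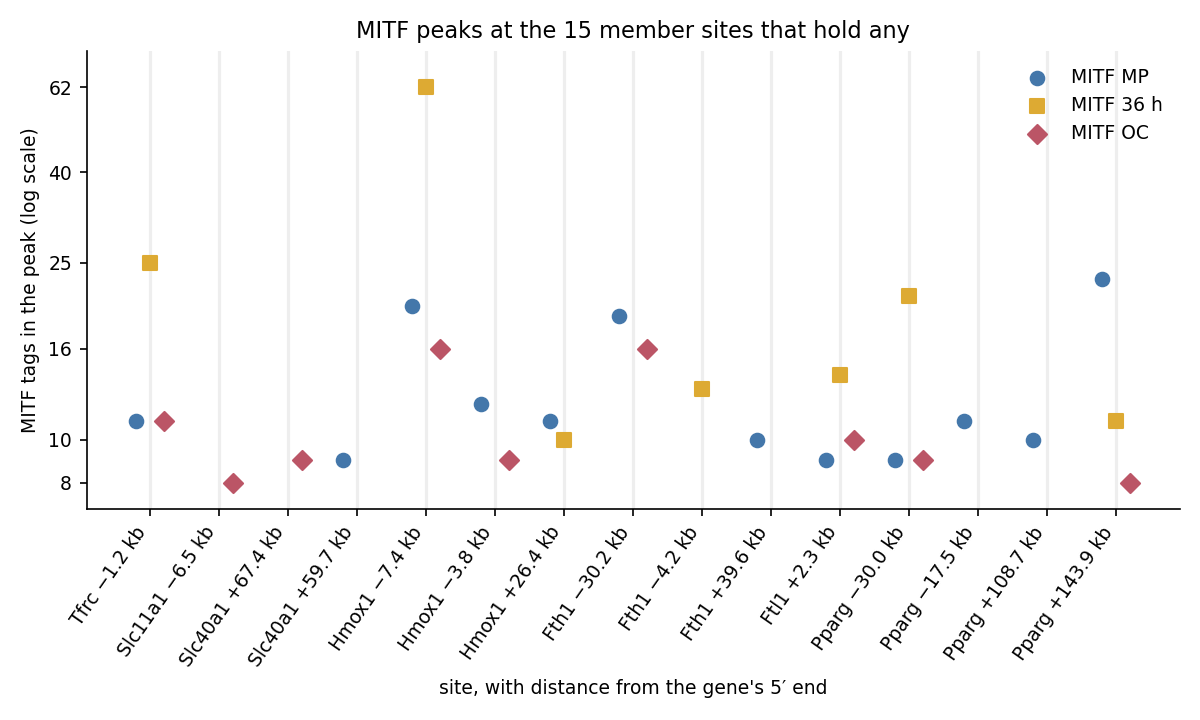
MITF tags (log scale) at the 15 sites in the 10 windows that held a MITF peak, labelled by gene and distance from its 5′ end, with 1 symbol per library and no symbol where no peak was listed. At 36 h the Hmox1 site at 7.4 kb had 62 tags in a peak of 235 bp, and no MP or OC value exceeded 23 tags.

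To ask whether binding changed with RANKL, reciprocal overlapping peaks of 2 libraries were paired, and a pair was called when it changed by 2-fold or more relative to the median pair and its exact binomial p, adjusted over all pairs, was under 0.05. From MP to 36 h, 1 of 91 PU.1 pairs in the windows was called, the Ppargc1b site, beside 1.05% of all 56340 pairs, and 9 had an unadjusted p under 0.05, beside 10.9% of all. From 36 h to OC, 0 of 100 were called beside 0.0707% of all pairs, with 4 at an unadjusted p under 0.05 beside 6.45% of all. From MP to OC, 0 of 101 were called beside 0.156% of all pairs, with 8 at an unadjusted p under 0.05 beside 7.84% of all. For MITF, 1 of 6 pairs was called from MP to 36 h (the Pparg site) beside 15.2% of all 2509 pairs, and 2 had an unadjusted p under 0.05, beside 29.6% of all. From 36 h to OC 0 of 5 were called beside 9.66%, with 1 at an unadjusted p under 0.05 beside 25.2% of all. From MP to OC 0 of 7 were called beside 0.0%, with 1 at an unadjusted p under 0.05 beside 3.23% of all. The median log2 change over the PU.1 pairs of the windows was 0.01, 0.0 and 0.05 in the 3 comparisons, where the median of all pairs is 0.0 by construction. The 3 comparisons of a factor share libraries and are not independent.

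**Figure D4:**
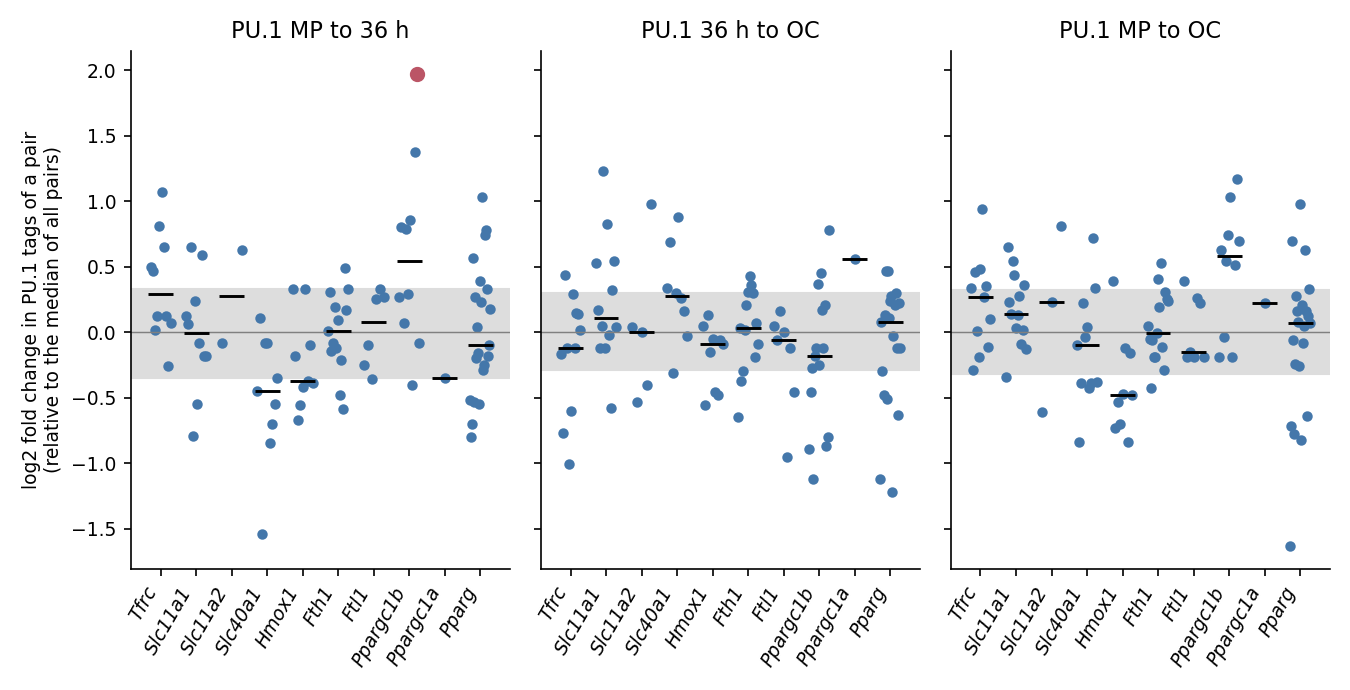
Log2 fold change in PU.1 tags of each pair of peaks, relative to the median of all pairs, by gene and comparison. Black lines are the medians of each gene, the grey band spans the middle 50% of all pairs, and the red point is the Ppargc1b site called from MP to 36 h; the medians of Ppargc1b stood at 0.54 and 0.58 in the comparisons with MPs, and those of Hmox1 at -0.37 and -0.48.

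MITF was listed at 7 of the 10 genes at some time and was missing at Slc11a2, Ppargc1b and Ppargc1a. Among all protein-coding genes, 32.1% had a MITF peak in their window in MPs, 24.0% at 36 h and 28.8% in OCs, beside 6, 5 and 7 of the 10 genes. The percentage of PU.1 peaks that overlapped a MITF peak was 9.52% in MPs (12 of 126, 95% Wilson interval 5.53 to 15.9), 6.14% at 36 h (7 of 114, 3.01 to 12.1) and 6.87% in OCs (9 of 131, 3.66 to 12.5). The whole lists had 6.95%, 4.62% and 5.38%, within these intervals. The intervals treat each peak as an independent draw, but peaks of 1 locus are not independent. They cover no difference between libraries and do not test whether the windows differ from the whole lists. The reverse overlap was complete in the windows, where each of the 12, 7 and 9 MITF peaks lay on a PU.1 peak, beside 97.9%, 93.8% and 93.3% of all MITF peaks. MITF sat at strong PU.1 sites: PU.1 peaks with MITF had a median score of 126.2, 113.8 and 113.1 at the 3 times, and those without had 24.75, 26.6 and 27.15. In all peaks of the lists the same medians were 148.4, 138.9 and 136.6 with MITF and 22.2, 22.2 and 22.0 without. Of the 15 MITF sites, 5 were the highest PU.1 site of their gene and 13 were among its 3 highest. Their distances from the gene start ran from 1.2 to 143.9 kb, and none was within 1 kb of a start, where 3.25% of all protein-coding genes had a MITF peak at some time. PU.1 lay within 1 kb of a start of 6 of the 10 genes at some time, beside 43.8% of all.

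**Figure D5:**
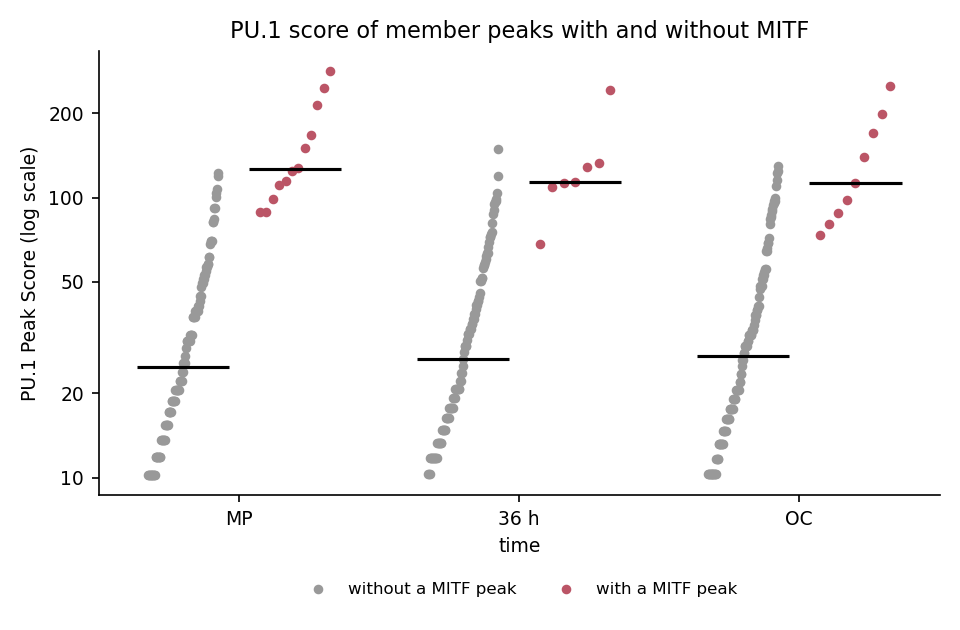
PU.1 Peak Score (log scale) of the peaks in the 10 windows at each time, with an overlapping MITF peak in red and without in grey, black lines being medians. The lowest PU.1 score with MITF was 88.7 in MPs, 68.0 at 36 h and 73.4 in OCs, and peaks without MITF reached 122.8, 149.3 and 129.2.

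The words searched in the printed sequences were counted in all peaks of the PU.1 OC and MITF OC lists. GAGGAA or GGAAGT occurred in 107 of the 131 PU.1 OC peaks of the windows (81.7%) and in 83.2% of all PU.1 OC peaks, and in 14 of the 15 PU.1 OC peaks at MITF sites, the exception being the Pparg site 17.5 kb upstream. CACGTG or CATGTG occurred in 17 of these 131 peaks and in 13.2% of all. In the PU.1 OC peaks at the 15 MITF sites, CACGTG occurred in 1, the Slc40a1 site 49.8 kb beyond the gene. CATGTG occurred in 1 of them, the Pparg site 17.5 kb upstream. Among all PU.1 OC peaks that overlapped a MITF OC peak, 93.1% held a PU.1-type word and 11.3% an E-box word. Among all MITF OC peaks 11.8% held an E-box word and 89.0% a PU.1-type word. Of the 9 MITF OC peaks in the windows, 0 held an E-box word and 8 a PU.1-type word. The MITF OC peak at the Slc40a1 site was among these 9.

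The genes whose 6 summed scores were most like those of Tfrc, by Euclidean distance of log2(1 + summed score), were Ms4a10, Gm1661 and Gpr44, at distances of 0.35 to 0.41. For Ppargc1b they were Smurf1, Npcd and 4933407L21Rik, at 0.16 to 0.25. Both the PU.1 and the MITF sums entered the distance. The lack of MITF peaks in these windows and their similar PU.1 sums therefore follow from how the genes were chosen. Smurf1, for example, had a summed PU.1 score of 223.4, 369.6 and 380.2.

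The other genes of iron and PGC1 biology are read against the same shares of all pairs, 1.05% for PU.1 and 15.2% for MITF from MP to 36 h and 9.66% for MITF from 36 h to OC. Among 18 genes of iron uptake and transport, PU.1 was higher at 36 h than in MPs at 1 site of 136 pairs, near Lcn2, which encodes a siderophore-binding lipocalin (35 to 75 tags, log2 1.02, exact binomial adjusted p = 0.0432), and lower at 1, near Cp, the ferroxidase ceruloplasmin (96 to 48 tags, -1.08, adjusted p = 0.00549). MITF near Slc25a28, a mitochondrial iron importer, had 25, 98 and 17 tags and was called higher from MP to 36 h (1 of 9 MITF pairs of these genes, 1.17, exact binomial adjusted p = 0.00248) and lower from 36 h to OC (1 of 10, -1.45, adjusted p = 0.00103). Among 12 genes of heme handling, PU.1 rose near Hpx, the heme carrier hemopexin, from 15 to 50 tags at 36 h (1 of 105 pairs, 1.65, exact binomial adjusted p = 0.00772), and MITF near Blvra, which reduces the biliverdin made by heme oxygenase, fell from 55 tags at 36 h to 9 in OCs (1 of 6 pairs, -1.53, adjusted p = 0.0172). Among 23 partners of PGC1 and PPAR, PU.1 rose near Crebbp, a histone acetyltransferase, from 12 to 43 tags at 36 h (1 of 156 pairs, 1.76, exact binomial adjusted p = 0.0118). The calls at these other genes were not followed under the alternatives used for the 10 windows. The widths of the MITF 36 h peaks near Slc25a28 and Blvra were not examined. From MP to 36 h, 0 of 61 PU.1 pairs and 0 of 4 MITF pairs were called at genes of iron storage and sensing, and 0 of 48 and 0 of 4 at genes of iron-sulfur and mitochondrial iron. Over the 6 comparisons 0 of 202 pairs were called at 9 genes of iron storage and sensing (17 at an unadjusted p under 0.05) and 0 of 161 at 7 genes of iron-sulfur and mitochondrial iron (15 at an unadjusted p under 0.05). Most of these were PU.1 pairs, of which at most 1.05% were called in any comparison over the whole lists. An unadjusted p under 0.05 was found in 6.45% to 10.9% of all PU.1 pairs. Counts of 0 therefore do not set these genes apart. The highest MITF scores were 115.8 at Cp and 95.4 at Slc25a28 for transport, 59.4 at Hif1a and 38.0 at Pcbp1 for storage and sensing, 53.5 at Blvra and 50.6 at Bach1 for heme, 70.1 at Glrx5 and 51.6 at Hspa9 for iron-sulfur, and 38.9 at Esrra and 38.0 at Nrf1 for PGC1 partners. Each was in the 36 h list, where scores were higher throughout. The median score of all MITF peaks was 23.4 at 36 h, against 12.5 in MPs and 11.4 in OCs.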

How the data were processed

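PU.1 and MITF ChIP-Seq libraries from MPs, 36 h cells and OCs and 1 IgG library from MPs were grouped by their labels. Per the labels' processing notes the authors used CASAVA 1.8, mapped reads with Bowtie2 to mm9 and called peaks with HOMER. The versions of Bowtie2 and HOMER and the peak settings are not given in the sources used here. The deposited Peak Score is a signal, tags scaled to a common library size by the authors, and the lists also name the nearest RefSeq transcript.

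Dividing scores by the value of 1 tag gave tags. With a scale of 10000000 tags, which is assumed, libraries held 5860000 to 6810000 tags for PU.1, 8760000 to 10270000 for MITF and 3120000 for IgG. Genes, exons and starts were from GENCODE vM1 and bases from NCBIM37 (mm9). Pairs were reciprocal nearest overlapping peaks, tested by the exact binomial test against the median tag ratio, with Benjamini-Hochberg adjustment over all pairs of a comparison. Python 3.11.15, numpy 2.4.6, pandas 2.3.3, scipy 1.17.1 and matplotlib 3.10.9 were used. On simulated tags, 193 of 200 4-fold changes were recovered for PU.1 MP to 36 h among pairs of at least 60 tags (8 of the unchanged pairs were called), and 185, 180 and 162 of 200 in the 3 MITF comparisons among pairs of at least 30 tags. Smaller changes, and changes in pairs with fewer tags, were not simulated. The median pair of the windows had 43.0 to 46.5 tags in the PU.1 comparisons and 22.0 to 32.0 in the MITF comparisons. Recovery at such pairs is therefore not known for PU.1 and only partly for MITF. Overlaps were checked with bedtools 2.31.1. With 1 library per condition, p-values cover counting error of these libraries only.

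Members, gene lists and tests were chosen with earlier results of these data known. For each gene the sites described are the highest PU.1 site, the highest MITF site, every MITF site, every PU.1 site within 1 kb of a start and every called site. The other sites given (the Slc11a2 site 5.3 kb upstream, the Tfrc site near Tnk2, the Slc11a1 site 1.8 kb upstream, the Ppargc1b sites at 77.6 and 1.4 kb, the Slc40a1 3′ UTR site and the 2 weaker Ppargc1a sites) were chosen after their values were seen. Alternatives were stricter scores, lists without IgG peaks, centers within 100 bp, other expected ratios, lists of equal size, windows of 20 and 100 kb, assignment by nearest RefSeq transcript (91.0% of transcripts matched a symbol in a GRCm38 table used for names only) and, added after seeing the data, MITF 36 h peaks of 150 bp. Tfr2, Flvcr1 and Flvcr2 were not analysed here. The sequence of 1 of the 5 sites with MITF at all 3 times is not reported here.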

Additional observations from a re-analysis of the deposited data

How the results depend on the processing

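Of 92 alternatives to 15 results, 71 left the result within 1.5 times its value or, for percentages, within its interval, and 21 did not. At the 2 called sites no alternative changed the direction. With scores of at least 2 times the lowest of the list, the calls from MP to 36 h went from 1 to 0 for both factors, PU.1 peaks in the windows to 82, 73 and 83, MITF peaks to 3, 3 and 2, and the percentage of PU.1 peaks with MITF to 3.66% in MPs and 2.41% in OCs; fewer peaks enter by construction. With MITF 36 h peaks of 150 bp only, MITF calls from MP to 36 h were 0. With the ratio of library sizes, MITF calls from 36 h to OC were 1, the Hmox1 site 7.4 kb upstream (33.6% of all MITF pairs were called from MP to 36 h and 38.2% from 36 h to OC). From MP to 36 h the count stayed at 1, but the site was the same Hmox1 site in place of the Pparg site, whose adjusted p was 0.0663. Windows of 20 kb held 78, 66 and 79 PU.1 peaks, and windows of 100 kb held 193, 173 and 208. By nearest RefSeq transcript PU.1 36 h had 61 peaks. With MITF lists of equal size, MP had 5 MITF peaks, and 4.17% of its PU.1 peaks overlapped one. Leaving out peaks that overlap an IgG peak moved no result past these limits. No IgG peak lay in the windows, so this alternative could hardly move a result, although it is counted among the 71. Counts of 0 calls that stayed at 0 are among the 71 as well. For these a window of 20 kb, which holds a part of the same pairs, could not move the result. The Ppargc1b call rests on 7 tags in MPs. Peaks that were not listed have no tag count here, so sites gained or lost could not be tested. No paired analysis was possible because each condition has 1 library and the labels give no replicate numbers to pair.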

Other observations

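Of the 50 PU.1 sites in the 10 windows that were not listed at 36 h, 16 were listed in both MPs and OCs, and 3 of these 16 had a 36 h center within 500 bp: the Slc11a1 site in the intron just after the start, the Fth1 site in Rab3il1 and a Pparg site 17.9 kb upstream. For MP the numbers were 38 sites not listed, 14 listed at both other times and 1 within 500 bp, and for OC 33, 5 and 0. The part that the spacing of the 36 h list plays in these numbers was not tested.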
